A study of Mus musculus with 2 samples.

Results

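The Fc gamma receptors, which bind the constant part of IgG, were compared between primary and self-renewing macrophages together with the signalling chain and kinase they share. The genes were the activating receptors Fcgr1, Fcgr3 and Fcgr4, the inhibitory receptor Fcgr2b, the chain Fcer1g, the kinase Syk, the neonatal Fc receptor Fcgrt and the Fc receptor-like gene Fcrls. They are 8 of 22910 genes that could be named on the array, and were found through the transcript accessions of their probes. On 1 array or on both, 15515 named genes were flagged by the scanner as well above background, and these are the genes measured.

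Total RNA of bulk cultures from C57BL/6 mouse bone marrow, labelled male, was hybridised to Agilent SurePrint G3 mouse arrays with 1 dye, with 1 array for each cell type. The primary macrophages were the adherent cells of a bone marrow culture, collected at day 5. The self-renewing macrophages came from such cultures after passage 4, through repeated detachment and reseeding, and were uncloned cells that had kept growing. Both cultures received 100 ng/ml rhM-CSF, human M-CSF that also acts on mouse cells, in the same medium with heat-inactivated FCS. No antibody, immune complex or other stimulus is named for either culture.

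Activating Fc gamma receptors carry IgG-coated particles into the phagocyte and signal through the FcR gamma chain, the product of Fcer1g, whose ITAM motif is phosphorylated by Src family kinases and then binds Syk. The inhibitory receptor encoded by Fcgr2b has an ITIM motif of its own, which recruits the lipid phosphatase SHIP1 and dampens the same signal. Macrophages carry both kinds, and the balance between them is known to set how strongly a macrophage responds to immune complexes.

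Before the values of the receptors, the labels were set against genes that mark cells and sex. All 10 macrophage markers, among them Csf1r, the M-CSF receptor, and Adgre1, a macrophage surface receptor, were well above background on both arrays, and their summed signal relative to the 75th percentile was 938 in primary and 1243 in self-renewing macrophages. Primary macrophages had 9 of 11 neutrophil markers above background and self-renewing macrophages 6, with summed signals of 285 and 181, and 7 of the 10 measured were lower by 2-fold or more in the latter. The receptor gene Csf3r, which makes up most of the second sum, differed by 0.08 log2, whereas S100a8 and S100a9, which encode abundant neutrophil proteins, were detected on the primary array alone. Markers of NK cells (5 and 2 of 8 detected) and of B cells (4 and 2 of 8) were mostly dim. Their summed signals were 1.1 and 0.83 for NK cells and 1.98 and 0.31 for B cells. The B cell gene Cd79b made up 1.60 of the 1.98. Its signal was 696 in primary macrophages, and it was not well above background in self-renewing ones. Among mast cell and basophil markers, 5 of 9 were detected in primary and 2 in self-renewing macrophages, and among dendritic cell markers 4 and 1 of 6. Their summed signals were 0.403 and 0.307 for the first list, and 0.684 and 0.186 for the second. Of 7 T cell markers on the array, 5 were detected on both arrays, with sums of 19.0 and 17.0. Although both samples are labelled male, the primary array showed Xist and 0 of 6 Y-linked genes, and the self-renewing array showed 4 of the 6 and no Xist above background. Fewer cells of a type and less RNA per cell cannot be told apart in such bulk samples, nor can the cell type and the animal, and the part of other cell types in the values given here was not tested.

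All 8 genes were measured on both arrays. Their 10 probes, with 1 spot each, were well above background on both, and none was saturated. A level is given as log2 of the background-corrected signal relative to the 75th percentile of the array's gene probes, and a difference is the level in self-renewing minus that in primary macrophages. Levels of different probes are not comparable, because probes differ in how well they bind. The scanner's own error estimate was 10.0% of the signal for each of these spots, or 0.20 log2 for a difference. Across 5077 genes with several probes, the differences of probes for the same gene varied with an SD of 0.32 log2. This SD comes from the same 2 arrays. It therefore holds no variation between cultures, animals or arrays, and does not stand in for replicates. With 1 array per cell type no test could be made, and every difference describes these 2 arrays.

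Of the 8 genes, Fcgr2b and Fcgrt were higher in the self-renewing macrophages by 2-fold or more (2 genes), and Fcgr1 and Fcrls were lower by as much (2 genes). Of all named genes measured, 13.1% differed by at least 2-fold in either direction, 4.76% higher and 8.38% lower. The other 4 genes, among them Fcgr3, the shared chain and the kinase, differed by 1.08-fold to 1.40-fold. The median difference of the 8 genes was 0.15 log2, against a median of -0.02 over all named genes measured.

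**Figure D1:**
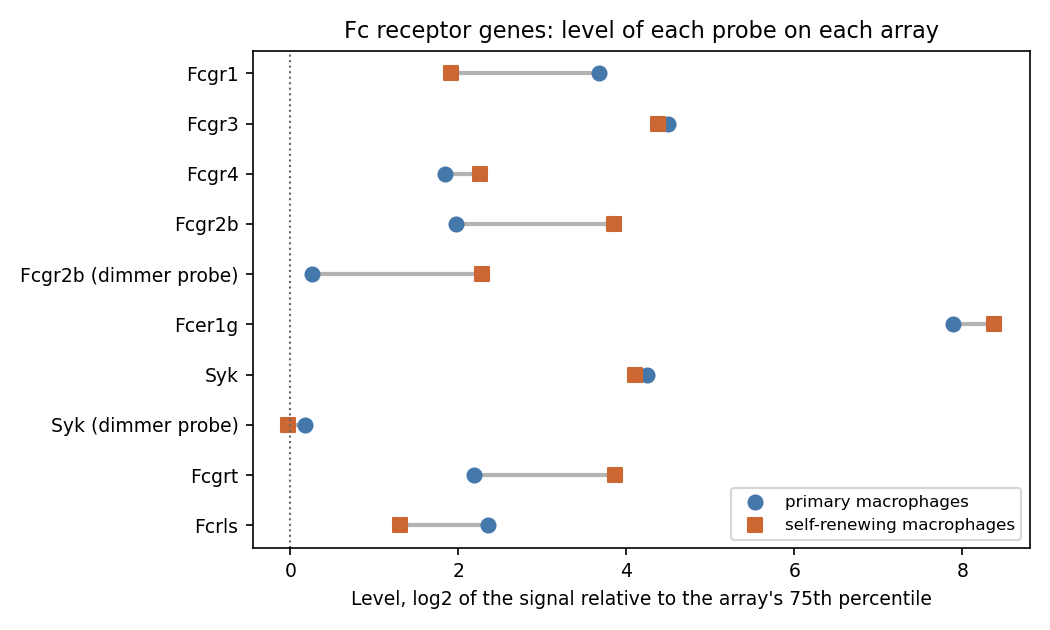
Level of each of the 10 probes of the 8 genes on the primary array (blue circles) and the self-renewing array (orange squares), as log2 of the signal relative to the array's 75th percentile, which is the dotted line at 0. Each row is 1 probe and each symbol 1 spot, and only the 2 symbols of a row can be compared. Fcgr1 moved from 3.67 to 1.91 and Fcgr2b from 1.97 to 3.85, while Fcgr3 and Syk hardly moved.

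Among the activating receptors, Fcgr1 encodes the high-affinity receptor FcγRI, or CD64, which binds single IgG molecules. Its signal was 5516 in primary and 1675 in self-renewing macrophages, levels of 3.67 and 1.91. The gene was therefore 3.39-fold lower in the self-renewing macrophages, a difference of -1.76 log2. This is 5.52 times the SD between probes of a gene, and of 14003 genes measured on both arrays 311 had a lower difference. A single probe reported Fcgr1.

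Fcgr3 encodes FcγRIII, a low-affinity receptor that binds IgG in complexes. Its signal was 9768 in primary and 9273 in self-renewing macrophages, with levels of 4.49 and 4.38. The difference of -0.12 log2 is smaller than the scanner's error of 0.20, and it became 0.07 with the values as scaled by the authors, so no direction can be given for this gene. Fcgr4 encodes FcγRIV, a receptor of intermediate affinity for IgG2a and IgG2b that mice carry on myeloid cells. Its signal was 1552 in primary and 2127 in self-renewing macrophages, levels of 1.84 and 2.25, which is 1.33-fold higher, or 0.41 log2. This is 2.03 times the scanner's error and 1.30 times the SD between probes. Thus the 3 activating receptors did not move together. Neutrophils also carry Fcgr3 and Fcgr4, and the part of neutrophils in these values was not tested.

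Fcgr2b encodes FcγRIIB, the inhibitory receptor. Its brighter probe gave a signal of 1703 in primary and 6418 in self-renewing macrophages, levels of 1.97 and 3.85, and its dimmer probe gave 518 and 2171, levels of 0.26 and 2.28. Both probes were thus higher in the self-renewing macrophages, by 1.87 log2 (3.66-fold) and 2.03 log2 (4.07-fold), and they differed from each other by less than the SD between probes of a gene. Of the 14003 genes measured on both arrays, 184 had a higher difference than the brighter probe. B cells carry this gene too, and the 4 B cell markers measured had a median difference of -0.68 log2. The part of B cells in the values of Fcgr2b was not tested. Fcgr2b and Fcgr3 share much of their sequence in the part outside the cell, and where the probes lie in the transcripts was not used here, so the part of shared signal was not tested.

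When each activating receptor was set against the inhibitory one, the difference between cell types ran towards the inhibitory receptor in all 3 pairs. The scaling of an array cancels in such a difference of differences. Fcgr1 less Fcgr2b was -3.63 log2, which is a 12.4-fold shift towards Fcgr2b in the self-renewing macrophages. Fcgr3 less Fcgr2b was -1.99 log2 (3.97-fold) and Fcgr4 less Fcgr2b was -1.46 log2 (2.75-fold). The 3 pairs share Fcgr2b, so its higher signal enters each of them, and in the pairs with Fcgr3 and Fcgr4 it makes up most or all of the shift. With the dimmer Fcgr2b probe the values were -3.79, -2.14 and -1.61 log2. These are ratios of change in RNA, not ratios of receptors on the cell surface, which the arrays did not measure.

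**Figure D2:**
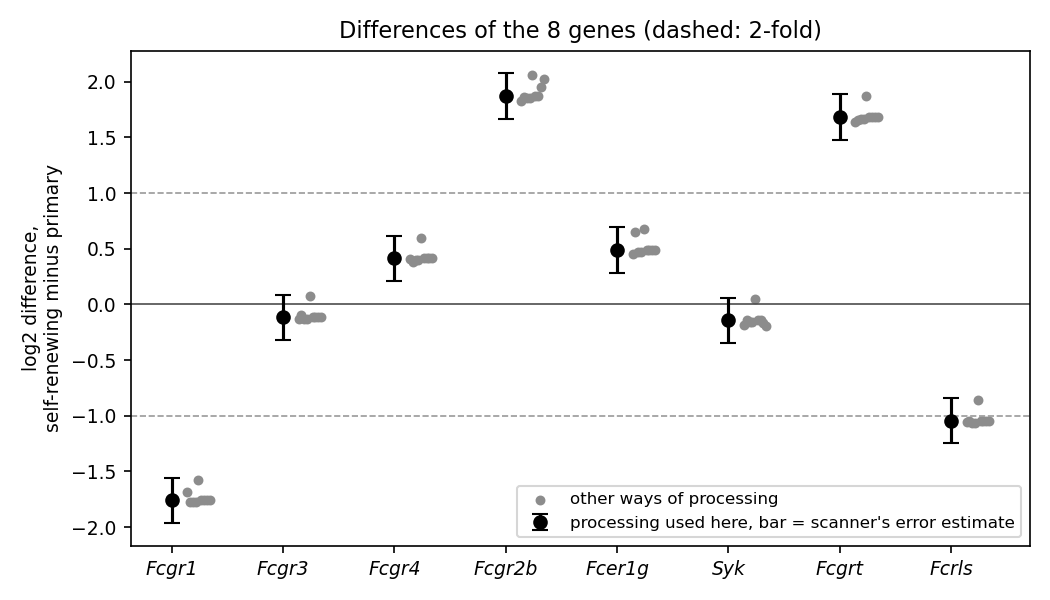
Difference of each gene in log2, self-renewing minus primary (black points), with the scanner's error estimate of 0.20 log2 as the bar, and the same difference under 9 other ways of processing (grey points, spread sideways to be visible). Dashed lines mark 2-fold. Fcgr2b and Fcgrt lie above the upper line and Fcgr1 below the lower line under every processing, whereas Fcrls reaches -0.86 under 1 of them and Fcgr3 and Syk lie around 0.

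The shared chain and the kinase showed smaller differences. Fcer1g, without which the activating receptors are not held on the surface, had a signal of 103126 in primary and 148809 in self-renewing macrophages, levels of 7.89 and 8.38. It was 1.40-fold higher, or 0.49 log2, which is 1.53 times the SD between probes, and neither spot was saturated. Tyrobp, which encodes the related ITAM chain DAP12, had signals of 90695 and 127408, with a difference of 0.45 log2. Syk was reported by a pair of probes. The brighter gave 8201 and 7645, levels of 4.24 and 4.10, and the dimmer gave 489 and 438, levels of 0.17 and -0.03. Both differences, -0.14 and -0.20 log2, lie within the scanner's error, and with the authors' scaling the brighter probe differed by 0.05 log2. A direction for Syk is therefore not given. The chain and the kinase thus differed by smaller amounts than Fcgr1 and Fcgr2b.

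Fcgrt encodes the heavy chain of the neonatal Fc receptor, which binds IgG in acidic endosomes and returns it to the surface instead of letting it be degraded. Its signal was 1971 in primary and 6509 in self-renewing macrophages, levels of 2.18 and 3.87. The self-renewing array was 3.21-fold higher, a difference of 1.68 log2 and 5.28 times the SD between probes, and 227 of 14003 genes had a higher difference. Its partner B2m, the light chain that it shares with MHC class I, had signals of 73253 and 98877, a difference of 0.39 log2 or 1.31-fold. The heavy chain and its light chain therefore differed in how far they moved.

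Fcrls belongs to the Fc receptor-like family, carries a scavenger receptor domain and is known as a marker of microglia. Its signal was 2204 in primary and 1100 in self-renewing macrophages, levels of 2.35 and 1.30. The gene was 2.06-fold lower, or -1.04 log2, which is 3.27 times the SD between probes, and 730 of 14003 genes had a lower difference. This value lies just past the 2-fold line, and with the authors' scaling it was -0.86 log2.

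**Figure D3:**
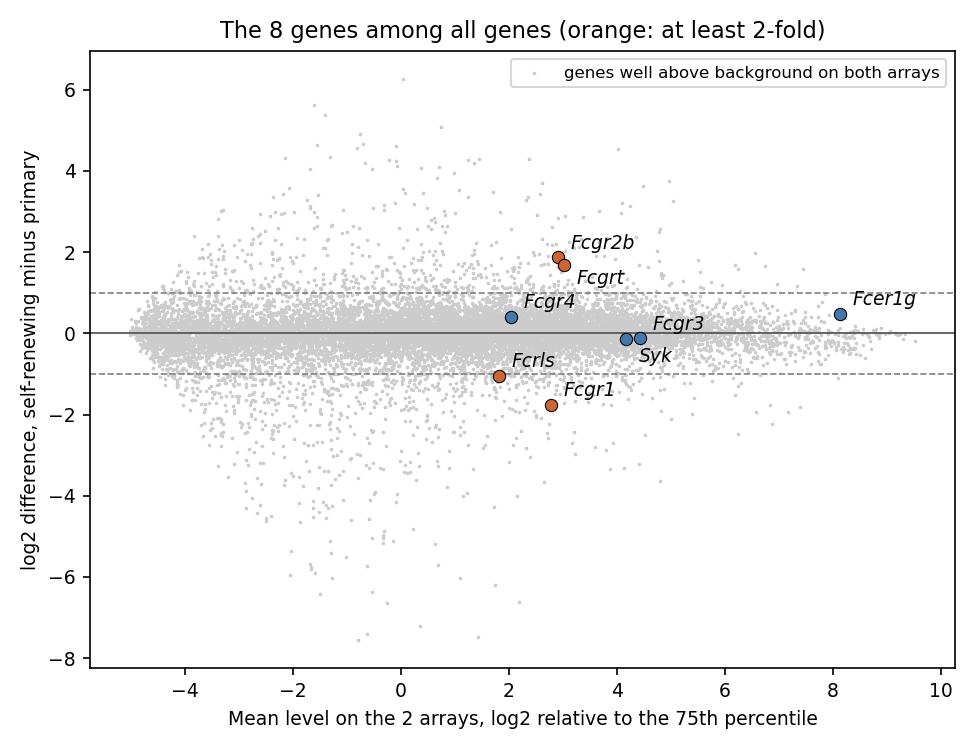
Difference in log2, self-renewing minus primary, against the mean level of the gene on both arrays in log2 relative to the 75th percentile, for 14003 named genes well above background on both arrays (grey). The 8 genes are outlined, in orange where they differed by at least 2-fold (dashed lines) and in blue otherwise. All 8 lie to the right of 0, above the 75th percentile of the arrays, and the 4 orange genes stand outside the dense part of the cloud.

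The promoters of the 4 Fc gamma receptors are shown because Fcgr2b, Fcgr4 and Fcgr3 follow each other on chromosome 1, with no other measured gene between them, and yet differed by 1.87, 0.41 and -0.12 log2, while Fcgr1 on chromosome 3 differed by -1.76. The sequences are those of RefSeq on GRCm38.p6, the 250 bases before the annotated start, 5′ to 3′ on the strand of the gene, and capitals mark matches to 3 motifs searched on both strands. These were GAGGAA, core letters bound by the myeloid factor PU.1, TTCNNNGAA, the letters of an interferon gamma-activated site, and GAAANNGAA, core letters of an interferon-stimulated response element.
Fcgr1, chr3:96293970-96294219, minus strand: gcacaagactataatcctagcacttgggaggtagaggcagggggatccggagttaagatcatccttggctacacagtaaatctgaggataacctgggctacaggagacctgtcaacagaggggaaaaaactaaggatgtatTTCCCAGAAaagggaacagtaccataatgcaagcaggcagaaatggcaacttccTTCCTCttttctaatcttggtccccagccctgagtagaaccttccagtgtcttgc
Fcgr3, chr1:171059395-171059644, minus strand: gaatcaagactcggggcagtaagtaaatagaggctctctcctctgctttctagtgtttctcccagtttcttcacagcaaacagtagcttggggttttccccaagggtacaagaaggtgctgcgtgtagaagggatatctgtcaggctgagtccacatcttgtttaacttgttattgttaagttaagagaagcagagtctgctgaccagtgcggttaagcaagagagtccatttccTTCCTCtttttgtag
Fcgr4, chr1:171018676-171018925, plus strand: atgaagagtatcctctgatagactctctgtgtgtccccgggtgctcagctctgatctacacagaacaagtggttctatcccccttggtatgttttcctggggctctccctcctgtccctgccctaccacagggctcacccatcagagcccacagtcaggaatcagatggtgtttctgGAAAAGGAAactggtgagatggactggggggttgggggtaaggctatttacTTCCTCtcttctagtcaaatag
Fcgr2b, chr1:170976072-170976321, minus strand: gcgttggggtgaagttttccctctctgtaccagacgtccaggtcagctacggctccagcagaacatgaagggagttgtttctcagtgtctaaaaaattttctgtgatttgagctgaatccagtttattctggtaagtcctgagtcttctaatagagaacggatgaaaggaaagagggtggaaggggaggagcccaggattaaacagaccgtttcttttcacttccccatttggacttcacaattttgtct

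In each of the 3 activating receptors the letters GAGGAA stood on the strand opposite to the gene, read as TTCCTC in the sequences above, at bases -55 to -50 of Fcgr1, -15 to -10 of Fcgr3 and -22 to -17 of Fcgr4. Counted from the second annotated start of Fcgr3, whose window is not shown, the same match lay at -6 to -1. The Fcgr2b window held none of the 3 motifs. GAGGAA is a common string, found in 23.3% of 32851 windows of this length over all genes. Fcgr1 also held TTCNNNGAA at -109 to -101, which 7.02% of windows hold, and Fcgr4 held GAAANNGAA at -73 to -65, which 7.13% hold. None of these matches overlapped another. Fcgr1 and Fcgr3 shared the run TTCCTTCCTCTTTT around the GAGGAA match, from base -59 in Fcgr1 and base -19 in Fcgr3. On either strand the run was present in 3 of 32851 windows, those of Fcgr1, Fcgr3 and Entpd1. Every other pair of the 4 receptors shared at most 8 letters in a row, with each window read on the strand of its gene alone. Of the other genes, Fcrls held GAGGAA at -144 to -139 on the strand of the gene and Syk at -9 to -4 of its second start, and Fcer1g and Fcgrt held none of the motifs. GAGGAA was thus present in a receptor that was lower, in one that hardly differed and in one that was 1.33-fold higher. These are letters in a window and no measure of binding, and the 50 bases after the start were not searched.

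The genes around the receptors were described in 7 lists with 141 genes, of which 132 were measured. In the self-renewing macrophages, 9 of them were higher and 5 lower by 2-fold or more. Of all named genes, 4.76% were higher and 8.38% lower, 13.1% in either direction. Their median difference was 0.12 log2. The counts leaned further to the higher side with the authors' scaling, at 16 higher and 3 lower. Among genes detected on both arrays, the lists had 9 higher and 5 lower of 131, beside 588 higher and 782 lower of all 14003. Whether the share of the pathway that differed lay above that of all genes thus depended on the set of genes compared. The list genes past 2-fold are named below.

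Of 13 other Fc receptors and Fc-binding genes, 8 were measured. By the brightest probe of each gene 0 differed by 2-fold, beside 13.1% of all named genes. The list's median was 0.20 log2. Fcrl5 differed by -0.17 log2 by that probe and by -1.35 by a dimmer one. Ms4a2, Fcer2a, Fcamr, Fcrl6 and Fcrla were not well above background on either array. The mast cell receptor chain Fcer1a, which also uses Fcer1g, was close to the detection limit, with signals of 17.3 and 20.9. Trim21, which binds IgG in the cytosol, differed by 0.26 log2. Within this list no gene moved as far as Fcgr1, Fcgr2b or Fcgrt. Values of genes not named by the rule for named genes, here and in the lists that follow, were chosen after they were seen.

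The activating Fc gamma receptors belong to the receptors that pair with ITAM chains. The list made for this group also held the chain genes Tyrobp and Hcst. It had 5 of 20 measured genes past 2-fold on the higher side and 1 on the lower, with a median of 0.38 log2. Of all named genes, 4.76% were higher and 8.38% lower. Clec4n, or Dectin-2, a receptor for fungal mannans that signals through the same Fcer1g chain, had signals of 2423 and 23152 and was 9.29-fold higher. Clec4e, or Mincle, which also pairs with Fcer1g and binds mycobacterial glycolipids, had signals of 3870 and 20745 and was 5.21-fold higher. The paired receptor Pilrb1 was 7.25-fold higher, Clec5a 4.75-fold and Trem3 2.29-fold. Pilrb1 resembles Pilra closely, and the part of signal shared between their probes was not tested. Sirpb1b, with signals of 4907 and 2524, lay just past 2-fold on the lower side, and no longer did so with the authors' scaling. Other receptors known to use the Fcer1g chain differed less, with Clec4d at 0.41, Pira2 at 0.21, Oscar at -0.15 and Gp6 at -0.63 log2. Gp6 was dim, with signals of 38.8 and 25.9. Also with Gp6 left aside, the partners of this chain did not move as a group.

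Among the kinases and adaptors next to the receptor, 0 of 19 measured genes were higher by 2-fold and 3 were lower. Of all named genes, 4.76% were higher and 8.38% lower. The list's median was 0.07 log2. Genes just under 2-fold on the higher side, among them Lcp2 at 0.98 and Blnk at 0.92 log2, passed it with the authors' scaling. The count of higher genes in this list thus depended on the scaling. Of the Src family kinases that phosphorylate the ITAM in myeloid cells, Fgr was 13.2-fold lower, with signals of 353 and 27.5 and a difference of -3.73 log2 that its second probe gave as -2.72. Lyn, of the same family, differed by 0.33 log2, with signals of 20449 and 26474. These kinases of one family therefore went different ways. The adaptor Lat was 6.88-fold lower, with signals of 192 and 28.7, while the related adaptor Lat2 differed by 0.07 log2. Cblb, a ubiquitin ligase that limits signalling from such receptors, was 3.71-fold lower by its brighter probe and fell by 1.25 log2 by its dimmer one.

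**Figure D4:**
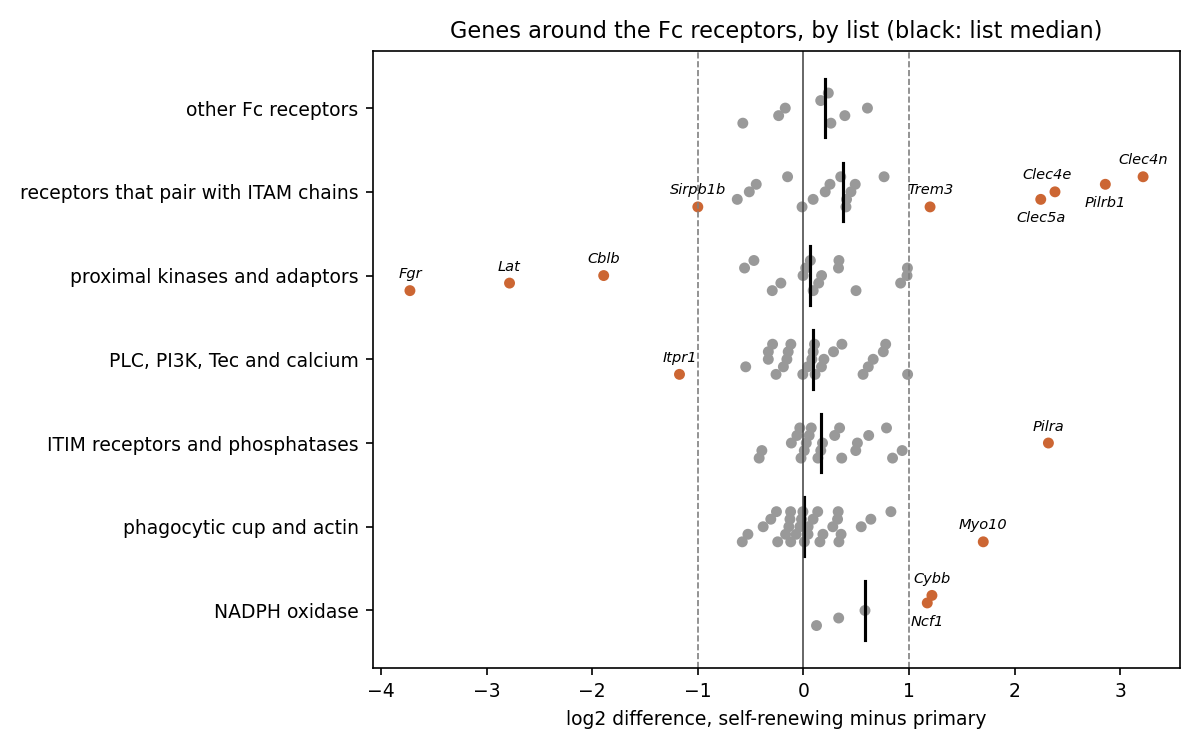
Difference in log2, self-renewing minus primary, of each gene measured in the 7 lists around the Fc receptors. Each point is 1 gene, spread vertically to be visible, black bars are list medians, and genes at least 2-fold different (dashed lines) are orange and named. All list medians lie between the dashed lines, and the genes far from 0 are Clec4n, Pilrb1, Clec4e, Clec5a and Pilra on the higher side and Fgr, Lat and Cblb on the lower side.

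Further along the pathway, 1 of 26 genes for phospholipase C, PI3-kinase, Tec kinases and calcium signalling differed by 2-fold, beside 13.1% of named genes. The gene in this list was Itpr1, an endoplasmic reticulum calcium channel, which was 2.26-fold lower, with its 3 probes between -1.45 and -1.10 log2. With the authors' scaling, which adds 0.19 log2 to each difference, Itpr1 did not reach 2-fold, and Prkce, at 0.99 log2 here, did on the higher side. The list's median was 0.09 log2. Plcg2, the phospholipase of this pathway in macrophages, differed by 0.36 log2 and Btk by -0.01 log2. Itpr2 differed by 0.56 log2 by its brightest probe and by 1.64 by another. By their brightest probes, 25 of the 26 genes in this stretch of the pathway thus differed by less than 2-fold between these arrays.

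On the inhibitory side, 1 of 23 ITIM receptors and phosphatases passed 2-fold upwards and 0 downwards, beside 4.76% and 8.38% of all named genes. The list's median was 0.16 log2. The gene past 2-fold was Pilra, an ITIM receptor, with signals of 1962 and 10072 (4.99-fold) and 2.72 log2 by its second probe. With the authors' scaling Lair1, at 0.93 log2 here, and Dok3, at 0.84, also passed 2-fold upwards. Inpp5d, which encodes the phosphatase SHIP1 recruited by FcγRIIB, had signals of 9331 and 12168, a difference of 0.34 log2. Ptpn6, which encodes the phosphatase SHP-1, had 8714 and 15459, a difference of 0.79 log2, with its probes between 0.64 and 0.85. Fcgr2b was therefore further apart between the cell types than the phosphatase it recruits.

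Of the genes that shape the phagocytic cup, 1 of 31 passed 2-fold, upwards, beside 4.76% of all named genes. The list had a median of 0.01 log2. With the authors' scaling Pld1, at 0.83 log2 here, also passed 2-fold upwards. Myo10, an unconventional myosin that extends the cup and its pseudopods, was 3.25-fold higher, with signals of 644 and 2155, and 1.23 log2 higher by its other probe. The Arp2/3 subunit gene Arpc1b differed by 0.04 log2, and Rac1 and Rac2, GTPases that drive actin assembly during uptake, by -0.53 and 0.34 log2. The phagocyte NADPH oxidase makes superoxide in the phagosome. Of 5 subunits, 2 were higher by over 2-fold, beside 4.76% of all named genes. The catalytic subunit gene Cybb had signals of 2390 and 5712 (2.32-fold) and Ncf1 had 4347 and 10078 (2.25-fold). Ncf4 differed by 0.33 and Cyba by 0.12 log2. All 5 subunits lay above 0, Cyba by less than the SD of 0.32 log2 between probes of a gene. Of all 15515 genes measured, 7427 lay above 0.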

How the data were processed

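RNA of 1 culture of each cell type was hybridised to an Agilent SurePrint G3 Mouse Gene Expression 8x60K v2 array with Cy3. The output of Agilent Feature Extraction 11.5.1.1 was deposited. It gives spot intensity corrected for background inside an array, unscaled between arrays, together with other values, namely flags for spots above background, saturated or outlying. The authors also deposited a table of these intensities times 1 constant per array, 1.07 for primary and 1.19 for self-renewing macrophages, whose origin is not given in the sources used here.

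Control spots and 112 of 59305 gene spots with an outlier flag on either array were left out, and spots of a probe were averaged, which left 56598 probes. Corrected intensity was divided by the array's 75th percentile over gene probes, 434 for primary and 446 for self-renewing macrophages, and log2 was taken. Accessions in a RefSeq table of GRCm38.p6 named 32988 probes and 22910 genes, and the probe of highest mean signal stood for its gene. The array design was annotated on another build, so coordinates are given for promoter windows alone. Genes detected on a single array have a bound. The dim side is then set to the lowest signal well above background on that array, or to the probe's own signal where that is higher. No test was made, and the number of arrays limits precision. The SD between spots of 1 probe had a median of 0.04 log2 on the primary and 0.05 on the self-renewing array over 280 probes.

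The genes, lists and alternatives were chosen with earlier results of these data known. Named in the text are the 8 genes with every probe, the partners B2m, Tyrobp, Lyn, Fgr, Inpp5d and Ptpn6, and from each list the genes at least 2-fold different, or the 5 with the largest difference. Of the 6 such genes among the receptors that pair with ITAM chains, Sirpb1b falls outside this rule. Results for some genes are not reported here. Alternatives were the authors' scaled values, quantile normalization, normexp background correction (offset 50), scaling to the 75th percentile or to the median of probes detected on both arrays, the mean over probes, the dimmest probe, a 1.5-fold threshold, no background filter, and genes detected on both arrays alone. The scripts were tested on simulated data. Software was R 4.3.3 with limma 3.58.1 for normexp, and Python 3.11.15 (matplotlib 3.10.9, scipy 1.17.1, pandas 2.3.3 and numpy 2.4.6) for all else.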

Additional observations from a re-analysis of the deposited data

How the results depend on the processing

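The differences of Fcgr1, Fcgr2b, Fcgr4, Fcer1g, Fcgrt and Fcrls kept their sign under all 9 alternatives, ranging from -1.78 to -1.57 log2 for Fcgr1, 1.82 to 2.06 for Fcgr2b, 0.38 to 0.60 for Fcgr4, 0.45 to 0.68 for Fcer1g, 1.64 to 1.87 for Fcgrt and -1.06 to -0.86 for Fcrls. Those of Fcgr3 (-0.13 to 0.07) and Syk (-0.20 to 0.05) changed sign with the authors' scaled values, which moved the median of all genes by 0.19 log2 and left 3 of the 8 genes at least 2-fold different. Under that scaling 49.2% of the named genes past 2-fold were higher, against 36.2% with the processing used here and 33.8% to 42.9% under the other alternatives. Set against Fcgr2b, Fcgr1 ranged from -3.79 to -3.51, Fcgr3 from -2.14 to -1.95 and Fcgr4 from -1.61 to -1.42 log2. Of 132 genes in the pathway lists, the 14 past 2-fold became 22 with each gene's dimmest probe, 14 higher and 8 lower. Beside them, 761 of all named genes were higher and 1322 lower. At a 1.5-fold threshold 31 list genes passed, and the share of all genes at that threshold is not given here. Under the other alternatives 13 to 19 list genes passed 2-fold. These alternatives measured 139 list genes with no background filter and 131 when detection on both arrays was asked. Over all named genes, their counts ran from 429 higher and 750 lower with normexp to 1192 and 2336 with no background filter. The slide as a block was not run, as each cell type has 1 array. No paired analysis was possible because only 1 array was made per cell type, and no array could be left out. All 10 probes of the 8 genes were well above background, so signal over background limits dim genes of the lists, such as Fcer1a and Fgr, rather than the receptors.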

Other observations

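The genes next to the receptors on their chromosomes, taken as the 5 nearest measured genes on each side in the RefSeq order of GRCm38.p6 and without the 8 genes themselves, were read for values of their own, beside 4.76% of all named genes at least 2-fold higher and 8.38% lower. Around Fcgr1, 0 of 10 neighbours, among them several histone genes and Terc, the RNA of telomerase, differed by 2-fold, and their median was -0.20 log2. Around Fcgr2b, Fcgr4 and Fcgr3, which share most of their neighbours, 1 of 8 was at least 2-fold lower for each, Nos1ap at -1.15 log2 for Fcgr2b and Pcp4l1 at -1.04 for the other two. Pcp4l1 was also the single gene lower among the 10 around Fcer1g. Next to Fcgrt, Rcn3, a calcium-binding protein of the endoplasmic reticulum, was 2.33-fold higher, and the median of the 10 neighbours was 0.26 log2. Around Syk, 3 of 10 were lower, the uncharacterised Gm2848 at -2.30 log2, the transcription factor Nfil3 at -1.30, and Diras2 by at least 4.83-fold.

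Beside Fcrls on chromosome 3, 3 of 10 neighbours were lower. Cd5l, a scavenger receptor-like protein secreted by macrophages, fell by 3.21 log2. Cd1d1, which presents lipid antigens to NKT cells, was at least 39.6-fold lower and Dclk2 at least 5.68-fold lower, both being well above background in primary macrophages only. The family members Fcrl1 and Fcrl5 differed by -0.57 and -0.17 log2 by their brightest probes. A dimmer probe of Fcrl5 gave -1.35 log2.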
